A study of Mus musculus with 4 samples.

Results

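Macrophages of the fetal liver, among them the Kupffer cells that line its sinusoids, were followed here through 38 genes that mark them or serve their functions. The genes were taken by name, and a gene was measured through each probe set whose only platform symbol was that gene and which was scored as Present by at least 2 of the 4 arrays. By this rule 35 of the 38 genes had a tested probe set, out of 11656 genes tested in all, and 59 of their 72 probe sets qualified, out of 22800. Trem2, a lipid-sensing receptor gene, had 2 probe sets, both Absent on all 4 arrays. Nr1h3os and Vcam1os, antisense RNAs, had no probe set with their symbol alone. The brightest tested probe set of each of the 35 genes was Present on all 4 arrays, so no member entered through 1 genotype only.

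The arrays came from mesothelial and submesothelial cells, the covering sheet of the liver and the layer under it, dissected at embryonic day 17.5 from C57BL/6 mouse livers. One genotype was p57-/- (labelled Kip2 -/-), without the cyclin-dependent kinase inhibitor p57 that Cdkn1c encodes, and the other was wild type, p57+/+. Each genotype had 2 samples, 1 in experiment 1 and 1 in experiment 2, each read on 1 single-colour Affymetrix array from 250 ng of total RNA. The labels say neither which cells lost p57 nor whether a sample was 1 embryo or a pool, and the p-values below therefore cover only how far these samples differ from one another, which may be technical.

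Kupffer cells arise from yolk sac and fetal liver precursors that enter the liver early in development. They need signalling through the CSF1 receptor and the transcription factor PU.1, encoded by Spi1, and take on their liver identity under local cues. They clear dying cells and expelled erythroid nuclei, recycle iron from haem, and carry Fc, scavenger and pattern receptors. Many of these receptors and their adaptors are shared with monocytes, neutrophils and, for some scavenger receptors, sinusoidal endothelium. In bulk samples such as these, fewer cells of a type and less RNA per cell cannot be told apart.

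Cdkn1c gave 10255 and 9866 in p57+/+ against 7.79 and 7.28, both Absent, in p57-/-. The p57-/- level was lower by at least 760-fold (limma adjusted p = 1.80e-08), as the labels state. Between 48.5% and 50.1% of probe sets were Present on an array, with a median signal of 76.4 to 83.0. The arrays differed in sex-linked transcripts. Xist, expressed in females, gave 12199 in p57+/+ replicate 1 and 86.7 in p57+/+ replicate 2, and the Y-linked gene Eif2s3y gave 2.56 (Absent) and 1734. Both p57-/- arrays held both transcripts, with Xist at 7889 and 6412 and Eif2s3y at 966 and 904. In each experiment the p57+/+ array thus held mainly 1 of these transcripts and the p57-/- array held both. Within an experiment, a difference between genotypes therefore cannot be told apart from this difference. The part of sex in the results below was not tested. In the mesothelium list the keratin genes Krt8 and Krt18, which hepatocytes and duct cells also express, were brightest, at 4830 ± 902 and 4263 ± 479 in p57+/+ (SD, n = 2), and all 12 genes of that list were detected.

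No macrophage gene passed the test between genotypes, and the 35 genes did not share 1 direction. The Kupffer cell surface and secreted genes Cd5l, Folr2, Timd4 and Clec4f and the factor gene Spi1 were lower in p57-/- in both experiments, 5 of 35 members beside 26.7% of all genes. Other genes of Kupffer cells were not, and Cd163 was higher in both. By their brightest probe set, Marco, Csf1r, Adgre1 and Slc40a1 were higher in experiment 1 and lower in experiment 2. A dimmer Csf1r set was higher in both. Of 5 genes of Fc receptors and their adaptors, Fcgr2b, Fcgr3, Fcer1g and Tyrobp were higher in both, and Fcgr1 was higher in experiment 1 only. Csf2rb, Cx3cr1 and Maf were also higher in both. Beside them, 11 of 13 monocyte and shared leukocyte markers and 10 of 13 neutrophil markers were higher in both, and their part was not tested. Leaving out 1 array turned the sign of many members, 14 of them when p57-/- replicate 1 was left out. Of the genes named here, Clec4f (-0.51 to 0.012), Tyrobp (-0.035 to 0.32), Fcgr1, Marco, Csf1r, Adgre1 and Slc40a1 turned in at least 1 such fit. These directions are descriptions of 4 arrays, each gene read beside its own spread.

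For Cd5l, Clec4f, Folr2 and Timd4, 4 of the 5 members that were lower in both experiments and so chosen here by their values, the sequence just upstream of a start is shown. Each holds 250 bases ending at the base before a RefSeq start in GRCm38.p6. The windows are Cd5l chr3:87357631-87357880 (+), Clec4f chr6:83656117-83656366 (-), Folr2 chr7:101857191-101857440 (-), Timd4 chr11:46810549-46810798 (+). The Timd4 gene is annotated from 46810786, so the last bases of its window lie inside the gene. Capitals mark AGGAAGT, the ETS core that PU.1 and SpiC bind, and TGCTGAC, which is only a part of the MAF recognition element, its left or right side. Both strands were searched, with a match on the opposite strand shown as its reverse complement. Spi1, the fifth such member, has no entry in the table.
Cd5l: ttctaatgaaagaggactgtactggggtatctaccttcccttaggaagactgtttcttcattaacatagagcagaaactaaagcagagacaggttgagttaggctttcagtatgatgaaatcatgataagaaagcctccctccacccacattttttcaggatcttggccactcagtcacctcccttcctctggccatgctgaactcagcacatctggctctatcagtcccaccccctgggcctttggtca
Clec4f: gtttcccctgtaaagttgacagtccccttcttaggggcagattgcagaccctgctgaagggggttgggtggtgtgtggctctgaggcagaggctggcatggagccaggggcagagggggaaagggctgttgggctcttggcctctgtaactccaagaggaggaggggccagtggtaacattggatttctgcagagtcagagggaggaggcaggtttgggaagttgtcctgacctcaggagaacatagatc
Folr2: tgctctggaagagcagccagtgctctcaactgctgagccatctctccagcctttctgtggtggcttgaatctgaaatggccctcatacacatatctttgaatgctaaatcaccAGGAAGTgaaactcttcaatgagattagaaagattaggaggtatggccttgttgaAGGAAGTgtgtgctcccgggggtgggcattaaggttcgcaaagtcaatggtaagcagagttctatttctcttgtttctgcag
Timd4: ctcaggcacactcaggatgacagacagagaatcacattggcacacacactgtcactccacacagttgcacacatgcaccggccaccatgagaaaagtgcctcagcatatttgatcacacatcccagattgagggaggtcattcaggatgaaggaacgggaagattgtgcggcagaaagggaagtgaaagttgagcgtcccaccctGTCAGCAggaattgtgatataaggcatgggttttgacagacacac
Folr2 held 2 matches to AGGAAGT, and Timd4 held 1 to TGCTGAC. The windows of Cd5l and Clec4f held no exact match to either motif. The window of a further Folr2 start, downstream of the one shown, held none. In Cd5l the run tgctgaactcagca came close, its ends differing from TGCTGAC and its reverse complement GTCAGCA only in their inner base. The promoter table gave 28 windows for 25 of the 38 members. AGGAAGT occurred in 4 of these 28 windows and in 7.69% of all 32851 windows of that length, and TGCTGAC in 3 of 28 and in 3.81%. The other members with AGGAAGT were Fcgr1, Mrc1 and Spic, and the other member with TGCTGAC was Fcgr3, whose pair of windows overlap. A match is a run of letters in this window and was not tested as a binding site.

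Over all genes the test called 1 gene, Cdkn1c, which is 0.00858% of the genes tested by their brightest probe set and 0.00439% of the probe sets. Among the members 0 of 35 genes and 0 of 59 probe sets passed in limma. At an unadjusted p under 0.05, 4 members were higher and 1 was lower, beside 4.70% and 4.07% of all genes. Among the 59 member probe sets these counts were 8 and 1, beside 3.93% and 3.75% of all probe sets. The 8 belong to Csf2rb, Cx3cr1, Fcgr2b, Maf and Laptm5, and some of them read the same gene, so they are not independent. By the brightest probe set of a gene, the smallest limma adjusted p among members was 0.549, reached by both Fcgr2b and Cd5l. Over the 59 member probe sets it was 0.519, for a dimmer set of Fcgr2b. The standard errors of the members' log2 changes ran from 0.11 to 0.32, with a median of 0.19, against 0.18 over all genes.

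By sign, 13 of 35 members were higher in p57-/- in both experiments, 5 were lower in both, and 17 differed in opposite ways. Some of the 13 had only a small difference in 1 experiment, below its standard error. Examples are Hmox1 (0.005), Cd14 (0.03) and Tyrobp (0.05) in experiment 2 and Itgam (0.04) in experiment 1. Among the 5, Spi1 was at -0.05 in experiment 1. Of all genes tested, 29.6% were higher in both, 26.7% lower in both and 43.7% opposite. By mean log2 signal 26 members were higher in p57-/-, beside 52.6% of all genes. The members' median log2 change, p57-/- minus p57+/+, was 0.14, against 0.02 over all genes. In 9 members both p57-/- signals lay above both p57+/+ signals, and in 4 both lay below. These counts are 25.7% and 11.4% of the members, beside 21.7% and 19% of all genes, which puts the upward count near its background and the downward count under it.

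**Figure D1:**
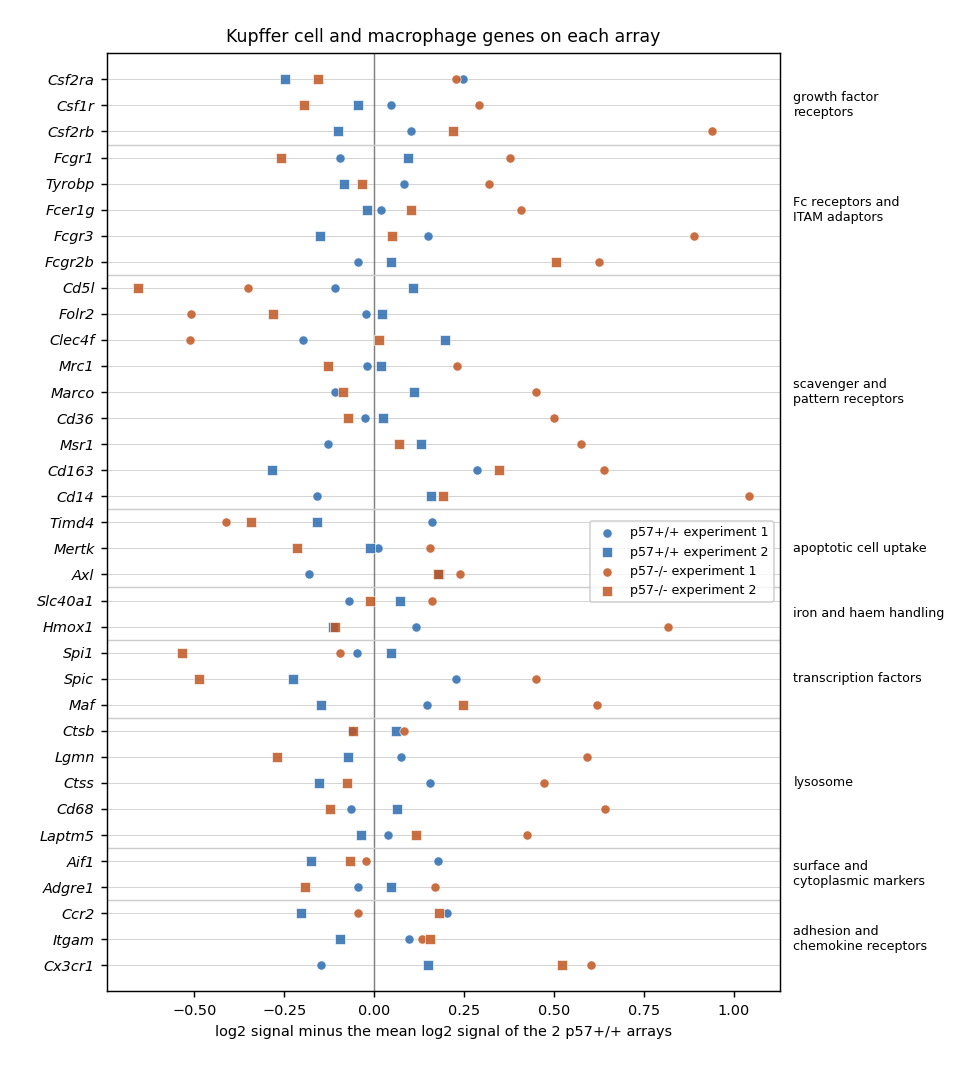
Log2 signal of each of the 35 tested genes on each array, set to the mean of the 2 p57+/+ arrays (x axis), with genes grouped by role; circles are experiment 1, squares experiment 2, blue p57+/+ and orange p57-/-. The orange circle, p57-/- in experiment 1, is the rightmost point in 26 of the 35 genes, and the orange points of Cd5l, Folr2 and Timd4 lie left of both blue ones.

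The values within the experiments were not alike. In experiment 1, 27 of 35 members were higher in p57-/-, with a median of 0.32, and in experiment 2, 16 of 35 were, with a median of -0.06. Over all genes 53.7% were higher in experiment 1 and 49.2% in experiment 2. The p57-/- array of experiment 1 had the highest of the 4 signals in 26 members, or 74.3%, while it was highest in 30.8% of all genes. Members at least 1.5-fold apart numbered 8 in experiment 1 and 2 in experiment 2, beside 13.5% and 10.2% of all genes, and 0 were that far apart the same way in both. Without p57-/- replicate 1, the mean was higher in p57-/- for 14 members and lower for 21, beside 52.2% of all genes higher. Without p57-/- replicate 2, it was higher for 28 and lower for 7, beside 52.9%, and 3 members, Csf2rb, Fcgr3 and Hmox1, then passed in limma, when 0.969% of all probe sets did. Whether the experiments differ beyond the spread between samples was not tested, since each has 1 array per genotype.

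**Figure D2:**
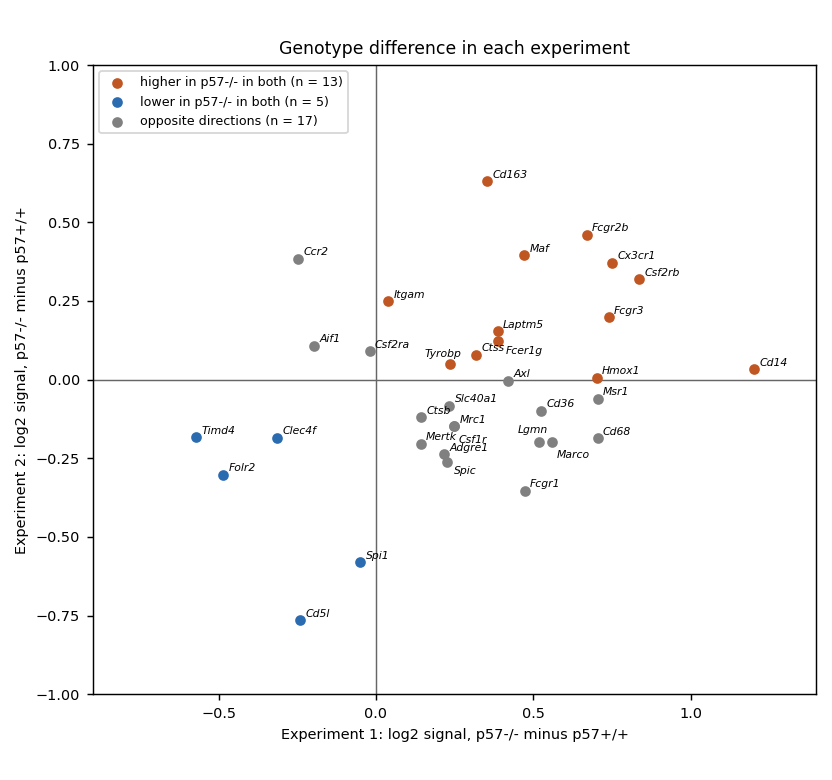
Log2 difference between p57-/- and p57+/+ in experiment 1 (x axis) and experiment 2 (y axis) for the 35 genes, 1 point a gene. The 13 genes higher in both sit in the upper right, the 5 lower in both in the lower left, and most of the 17 others in the lower right, higher in experiment 1 and lower in experiment 2.

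Among the growth factor receptors, Csf2rb, the shared signalling chain for GM-CSF, IL-3 and IL-5, gave 1185 and 1031 in p57+/+ against 2117 and 1285 in p57-/-. The p57-/- signals of Csf2rb lay above the p57+/+ signals in both experiments, and by more in experiment 1. Its log2 change was 0.58 (SE 0.22, limma adjusted p = 0.601), and its other probe set was at 0.56 (SE 0.27). Csf1r, the receptor that Kupffer cells depend on, gave 12884 and 12096 in p57+/+ against 15288 and 10912 in p57-/-. The p57-/- arrays held both the highest and the lowest Csf1r signal, so the genotypes overlapped. Its log2 change was 0.05, with a 95% interval of -0.30 to 0.40, and its other probe sets were at 0.38 (SE 0.19) and 0.17 (SE 0.17). The set at 0.38 was higher in both experiments, by 0.46 and 0.31, and the set at 0.17 was higher in experiment 1 only. Csf2ra, the chain that binds GM-CSF, was at 279 and 198 in p57+/+ against 275 and 211 in p57-/-, each experiment's arrays being close to each other.

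Fc receptors bind antibody on opsonised particles, and Fcer1g and Tyrobp encode adaptors with the ITAM motif through which these and related receptors signal. Of 5 tested members of this group, 4 were higher in p57-/- in both experiments. Fcgr2b, the inhibitory receptor, which sinusoidal endothelium also expresses, gave 695 and 740 in p57+/+ against 1106 and 1018 in p57-/-. Its genotypes did not overlap with this probe set, and replicates of a genotype lay close together. The log2 change of Fcgr2b was 0.56 (SE 0.15, limma adjusted p = 0.549), with a 95% interval of 0.23 to 0.90. Its other 3 tested probe sets disagreed, at 0.86 (SE 0.20), 0.22 (SE 0.17) and -0.01 (SE 0.19). The pair with the larger changes carry name endings (s and x) that mark probes shared with other transcripts, so the assignment of that signal to Fcgr2b is uncertain.

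Fcgr3, an activating receptor of macrophages, neutrophils and natural killer cells, gave 1662 and 1350 in p57+/+ against 2775 and 1549 in p57-/-. Only the experiment 1 p57-/- array stood above both p57+/+ arrays, and the log2 change was 0.47 (SE 0.24, limma adjusted p = 0.675). Fcer1g gave 3401 and 3308 against 4450 and 3602 in p57-/-, with no overlap and a log2 change of 0.26 (SE 0.14). Tyrobp gave 4538 and 4041 against 5340 and 4179, where the genotypes overlapped. Fcgr1, the high-affinity receptor for IgG, was higher in experiment 1, at 347 against 482, and lower in experiment 2, at 396 against 310.

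Scavenger and pattern receptors take up modified lipoproteins, microbes and debris. Cd5l, a secreted protein of tissue macrophages that supports their survival and is much used as a Kupffer cell marker, gave 5007 and 5817 in p57+/+ against 4233 and 3422 in p57-/-. Both p57-/- signals were below both p57+/+ signals, with the larger gap in experiment 2. Its log2 change was -0.50 (SE 0.14, limma adjusted p = 0.549), with a 95% interval of -0.82 to -0.18. Folr2, a folate receptor of resident macrophages, gave 374 and 385 in p57+/+ against 267 and 312 in p57-/-, again without overlap, and its log2 change was -0.39 (SE 0.20). Clec4f, a lectin that in mice is largely restricted to Kupffer cells, gave 753 and 990 in p57+/+ against 605 and 871 in p57-/-. Clec4f was lower in p57-/- within each experiment, but experiment 2 was higher than experiment 1 in both genotypes, so the groups overlapped and the log2 change was -0.25 (SE 0.21).

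Marco, Msr1, Cd36 and Mrc1, receptors for particles, modified lipoproteins, fatty acids and mannosylated ligands, shared another pattern. Each was higher in p57-/- in experiment 1, by 0.56, 0.70, 0.53 and 0.25 on the log2 scale, and lower in experiment 2, at -0.20, -0.06, -0.10 and -0.15. Marco, for example, gave 1846 and 2150 in p57+/+ against 2719 and 1875 in p57-/-. The probe sets of Cd36 and Msr1 disagreed in sign, with a dimmer one at -0.38 (SE 0.26) and -0.29 (SE 0.45). Cd14, the lipopolysaccharide co-receptor, gave 130 and 162 in p57+/+ against 300 and 166 in p57-/-. Its log2 change, 0.62 (SE 0.32), the highest among members, lay in the experiment 1 arrays, with a difference of 1.20 there and 0.03 in experiment 2. Cd163, the receptor for haemoglobin bound to haptoglobin, gave 146 and 98.6 against 187 and 153 in p57-/-, which put its log2 change at 0.49 (SE 0.30) without overlap at low signals.

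Timd4, Axl and Mertk bind phosphatidylserine on dying cells directly or through bridging proteins. Timd4, a marker of long-lived resident macrophages, gave 621 and 497 in p57+/+ against 417 and 438 in p57-/-. Its genotypes did not overlap, and the log2 change was -0.38 (SE 0.19, limma adjusted p = 0.653). Mertk gave 1050 and 1034 in p57+/+ against 1159 and 897 in p57-/-, which lay on either side of the p57+/+ pair. Axl, which mesenchymal cells also express, gave 652 and 838 against 872 and 836, so that p57+/+ replicate 1 was the low array.

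Hmox1, the enzyme that breaks down haem and a gene induced by oxidative stress, gave 2364 and 2016 in p57+/+ against 3843 and 2023 in p57-/-. The experiment 1 p57-/- array stood apart from the others, and the log2 change was 0.35 (SE 0.25). Slc40a1, ferroportin, which exports the recovered iron, gave 11070 and 12218 against 13007 and 11537, with overlap. Its log2 change was 0.07, with a 95% interval of -0.19 to 0.34.

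Of the transcription factor genes, Maf, which promotes macrophage differentiation and is also expressed in sinusoidal endothelium, gave 3895 and 3173 in p57+/+ against 5401 and 4174 in p57-/-. Both p57-/- signals lay above both p57+/+ signals, by 0.47 in experiment 1 and 0.40 in experiment 2 on the log2 scale. Its log2 change was 0.43 (SE 0.16, limma adjusted p = 0.581), and all 5 tested probe sets had a higher mean, 4 of them in both experiments. Spi1 gave 236 and 252 in p57+/+ against 228 and 169 in p57-/-, which put its log2 change at -0.32 (SE 0.24), with almost the whole gap in experiment 2. Spic, the factor of iron-recycling macrophages, gave 467 and 341 against 546 and 285, and its other probe set was at -0.31 (SE 0.29). Spic and Spi1 are measured at low signals, and their intervals, -0.69 to 0.65 and -0.86 to 0.23, leave room for a change either way.

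**Figure D3:**
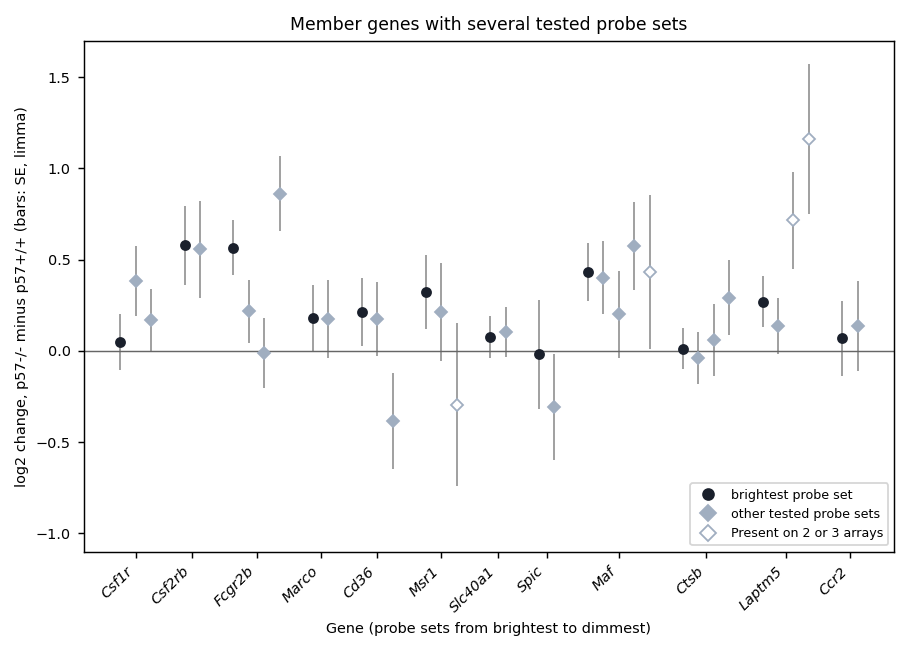
Log2 change between genotypes (y axis, bars are SE from limma) for each tested probe set of the 12 genes with more than 1, ordered from brightest to dimmest within a gene; open diamonds were Present on 2 or 3 arrays. All probe sets of Maf, Csf2rb and Laptm5 lie above 0, while those of Fcgr2b, Cd36, Msr1 and Ctsb fall on both sides of it.

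Lysosomal genes showed a gap in experiment 1 only for some members. Cd68, a lysosomal membrane glycoprotein, gave 616 and 673 in p57+/+ against 1004 and 591 in p57-/-. The p57-/- arrays were again the highest and the lowest of the 4. Lgmn, a cysteine protease, behaved likewise, with 1347 and 1217 against 1930 and 1060. Ctss, a protease of antigen processing, gave 5524 and 4460 against 6887 and 4708, higher in both experiments but overlapping. Ctsb, expressed in most cells, gave 12992 and 14133 against 14357 and 13012, a log2 change of 0.01 with a 95% interval of -0.24 to 0.26. Laptm5, a lysosomal protein of blood cells, gave 2779 and 2637 against 3633 and 2933 with no overlap, and its log2 change was 0.27 (SE 0.14). The other 3 Laptm5 probe sets were at 0.14 (SE 0.15), 0.71 (SE 0.27) and 1.16 (SE 0.41). The sets at 0.71 and 1.16 were dim and Present on 2 and 3 arrays. All tested Laptm5 sets carry the s or x ending described for Fcgr2b, as do the brightest sets of Spic and Aif1. Dimmer sets of Csf1r, Marco, Maf and Spic carry it too. The assignment of the signal of these sets to their gene is likewise uncertain.

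Adgre1, which encodes the F4/80 antigen, gave 1609 and 1715 in p57+/+ against 1869 and 1455 in p57-/-. Its means were 1662 ± 74.7 and 1662 ± 293 (SD, n = 2), so the means of this general macrophage marker nearly coincided, with a 95% interval of -0.36 to 0.34 on the log2 scale. Aif1, an actin-binding protein of macrophages, gave 770 and 604 against 672 and 651.

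Receptors for monocyte traffic were uneven. Cx3cr1, the fractalkine receptor of monocytes and of macrophage precursors, gave 269 and 331 in p57+/+ against 453 and 428 in p57-/-. The genotypes did not overlap, p57-/- was above p57+/+ in each experiment, and the log2 change was 0.56 (SE 0.20, limma adjusted p = 0.578). Ccr2, the receptor that brings monocytes to tissues, was lower in experiment 1, at 496 against 418, and higher in experiment 2, at 375 against 489. Itgam, the CD11b integrin chain that neutrophils also carry, gave 214 and 187 against 219 and 222, a log2 change of 0.14 (SE 0.23).

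Genes that act beside the members were counted from lists named for their function, and none of them passed the test. Of 14 tested genes of the CSF1 axis and macrophage regulators, 5 were higher in both experiments and 3 lower, with a median of 0.16. Csf1, a ligand of the CSF1 receptor, gave 339 and 431 in p57+/+ against 578 and 483 in p57-/-, which put its log2 change at 0.47 (SE 0.20). Cebpb, a factor of myeloid activation, was at 0.41 (SE 0.13), and Zeb2, which upholds macrophage identity, at 0.37 (SE 0.20). The p57-/- signals of these 3 genes lay above the p57+/+ signals. Il34, the other ligand, was not detected on enough arrays to test.

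The ITAM signalling list held receptor genes such as Fcgr4 and Trem1 as well as genes of kinases and phosphatases. Of its 14 tested genes, 9 were higher in both experiments and 0 lower, with a median of 0.17. Pirb, an inhibitory immunoglobulin-like receptor, was at 0.55 (SE 0.22), Syk, the kinase that ITAM motifs recruit, at 0.34 (SE 0.19), and the phosphatase gene Ptpn6 at 0.33 (SE 0.16). In 7 of the 14 the genotypes did not overlap, all with p57-/- above, beside 21.7% of all genes. Of 18 genes of complement and phagocytosis, 7 were higher in both and 0 lower, with medians of 0.36 in experiment 1 and 0.00 in experiment 2. C1qb, a chain of the complement component that macrophages secrete, was at 0.28 (SE 0.15), C3ar1 at 0.54 (SE 0.41), and Gas6, the ligand of Axl and Mertk, at 0.51 (SE 0.16). Vsig4, a complement receptor of Kupffer cells named after its value was seen, gave 480.5 and 477 in p57+/+ against 338 and 560 in p57-/-, so it was lower in experiment 1 only.

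Of 16 other lysosomal genes, 3 were higher in both experiments and 4 lower, among them Ctsz at 0.42 (SE 0.16), Psap at 0.37 (SE 0.14) and Acp5 at -0.31 (SE 0.14). Of 11 other genes of iron and haem recycling, 3 were higher in both and 4 lower. The iron transporter gene Slc11a2 was at -0.51 (SE 0.21), the biliverdin reductase gene Blvrb at -0.31 (SE 0.13) and the haem transporter gene Slc48a1 at -0.25 (SE 0.16), all of which erythroid cells also express.

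Markers of other cells differed beside these values, and their part in the results was not tested. Of 13 tested monocyte and shared leukocyte markers, 11 were higher in both experiments and 0 lower, beside 29.6% and 26.7% of all genes. In 8 of them both p57-/- signals lay above both p57+/+ signals, beside 21.7% of all genes. Their summed signal was 69261 to 74280 in p57+/+ and 80106 to 85968 in p57-/-. Neutrophil markers gave 10 higher of 13, 0 lower and, against the same 21.7%, 8 with p57-/- above, with sums of 213215 to 213998 and 231026 to 236981. The lysozyme gene Lyz2 was at 0.32 (SE 0.11), and S100a9 and S100a8 at 0.11 (SE 0.10) and 0.06 (SE 0.10). The members' own sum was 85221 to 85717 in p57+/+ and 81060 to 104253 in p57-/-.

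Endothelial markers, which include genes of the sinusoidal cells that share Fcgr2b, Maf, Mrc1 and Cd36 with macrophages, had medians of 0.43 in experiment 1 and -0.15 in experiment 2 over 11 tested genes. Their sums were 10784 and 12085 in p57+/+ against 13671 and 10677 in p57-/-. Stab2 was at 0.22 (SE 0.16) and Lyve1 at -0.09 (SE 0.14). Megakaryocyte markers had medians of 0.67 and -0.23 over 6 genes, with sums of 10624 to 12081 and 10934 to 17270. The p57-/- array of experiment 1 thus had the highest sum for the endothelial and megakaryocyte lists as for the members. It also had the highest sum for the monocyte and shared leukocyte list (85968), the stellate and mesenchyme list (99205) and each function list. For the neutrophil, mast cell and basophil, hepatocyte, mesothelium, erythroid and B-lymphoid lists, another array had the highest sum.

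Erythroid markers were lower in both experiments for all 9 tested genes, with sums of 101007 to 107633 in p57+/+ and 68709 to 91232 in p57-/-, and Slc4a1 and Tfrc were at -0.24 (SE 0.11) and -0.50 (SE 0.16). B-lymphoid markers had 4 of 6 lower in both, with sums of 4536 to 4638 and 2755 to 4629, and Vpreb1 and Igll1 at -0.46 (SE 0.31) and -0.44 (SE 0.22). Mast cell and basophil markers had 2 of 5 higher in both, with sums of 1719 to 1806 and 1896 to 2064, and Kit and Gata2 at 0.27 (SE 0.16) and -0.06 (SE 0.19). Hepatocyte markers had 0 of 8 changed the same way in both experiments, with medians of 0.19 in experiment 1 and -0.16 in experiment 2. Their sums were 355375 to 437694 and 394572 to 408600, and Apoa1 and Ttr were at 0.07 (SE 0.11) and -0.01 (SE 0.13). Of 12 mesothelium markers 4 were higher and 6 lower in both, with sums of 18760 to 23578 and 19401 to 22974. Stellate and mesenchyme markers had 7 of 11 higher and 2 lower, with sums of 77370 to 87447 and 91271 to 99205, and Col3a1 and Col1a2 at 0.19 (SE 0.12) and 0.10 (SE 0.11). The platelet genes Pf4 and Ppbp were at 0.38 (SE 0.20) and 0.18 (SE 0.17), and Lyz1 at 0.13 (SE 0.10). Several defining markers did not reach Present on 2 arrays or had no probe set of their own, among them Cd79a and Pax5 of B cells, Pecam1 of endothelium, Cpa3 and Cma1 of mast cells, Cxcr2 of neutrophils, Ly6c2 of monocytes and Des of stellate cells.

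**Figure D4:**
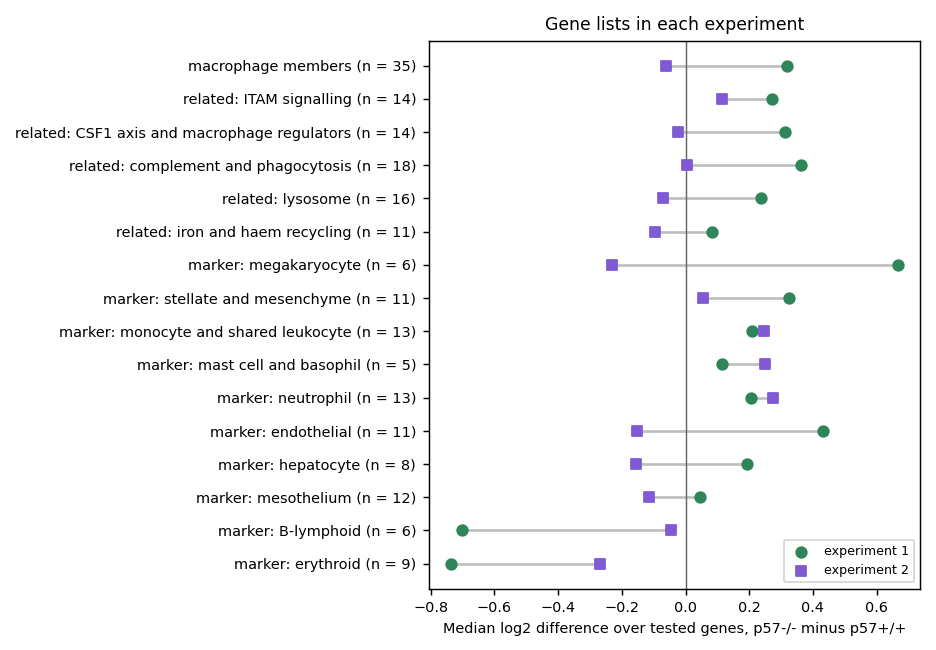
Median log2 difference between p57-/- and p57+/+ over the tested genes of each list (n in brackets), in experiment 1 (circles) and experiment 2 (squares). The macrophage members, at 0.32 and -0.06, lie higher in experiment 1 than in experiment 2, as the endothelial and megakaryocyte lists do. So do the hepatocyte (0.19 and -0.16), complement and phagocytosis (0.36 and 0.00), CSF1 axis (0.31 and -0.02) and lysosome (0.24 and -0.07) lists. The stellate and mesenchyme (0.33 and 0.05), ITAM signalling (0.27 and 0.12), iron and haem recycling (0.08 and -0.10) and mesothelium (0.05 and -0.11) lists do too. The erythroid, B-lymphoid and mast cell and basophil lists lie lower in experiment 1 than in experiment 2. The monocyte and neutrophil lists lie between 0.21 and 0.27 in both.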

How the data were processed

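Mouse fetal liver surface cells were measured on 4 Affymetrix arrays, 2 per genotype, with 45101 probe sets each. The authors deposited the MAS5 signal of each probe set, an intensity on a linear scale, with a detection p-value and a Present, Marginal or Absent call for it, per the file headers. Each deposited array had a mean of 500.003 after trimming 2% at each end. The deposited value table held the same signals. The sources used here give no MAS5 version or scanner step. Common scaling hides a change in total RNA, and few arrays limit the precision.

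Signals were log2 transformed with no pseudocount and fitted with limma 3.58.1 in R 4.3.3 (variance trend, no block, two-sided, Benjamini-Hochberg over 22800 probe sets Present on at least 2 arrays). The threshold was an adjusted p of 0.05. The fit was tested on simulated data. A gene's value is that of its brightest tested probe set. Differences within an experiment set its p57-/- array against its p57+/+ array, by the experiment number in the titles, as a description only. What an experiment shared is not stated. Symbols came from the platform annotation (34945 probe sets with 1, 932 with several, 9160 with none); promoter sequences are RefSeq's in GRCm38.p6.

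The members and lists were chosen with earlier results of these data known. Every member was named. From each function list the 3 largest changes shared by both experiments with a geometric mean signal of 100 or more were named, and from each marker list the 2 brightest genes. Alternatives were a replicate block, 2 other scalings, a pseudocount of 16, no or a stricter detection filter, no variance trend, averaged probe sets and leaving out each array.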

Additional observations from a re-analysis of the deposited data

How the results depend on the processing

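With all 4 arrays, 0 members passed in limma under every scaling, pseudocount, filter, variance and probe set alternative and under the replicate block. Each member's log2 change kept its sign under all of these. The block, the variance setting and the detection filters cannot alter a member's log2 change in this design. Only the scalings, the pseudocount and the averaged probe sets could have turned a sign. Members higher in both experiments numbered 12 to 15 over these alternatives and members lower in both numbered 5. Over all probe sets the replicate block called 30, with 0 members and a lowest member adjusted p of 0.203 (Csf2rb), and the filter of Present on all 4 arrays, which removes Cdkn1c, called 0. Leaving out 1 array gave 5 to 221 calls over all probe sets and 0 to 3 among members. The 3 were Csf2rb at 0.94, Fcgr3 at 0.89 and Hmox1 at 0.82 (limma adjusted p = 0.0289, 0.0378 and 0.0378), all without p57-/- replicate 2, when 0.969% of all probe sets were called and the lone p57-/- array is assumed to vary like the others. The members' median log2 change ran from -0.07 to 0.38 over these 4 fits. The log2 change turned sign in at least 1 of them for 19 members, here with their ranges: Adgre1 (-0.19 to 0.17), Aif1 (-0.22 to 0.13), Ccr2 (-0.13 to 0.27), Cd36 (-0.074 to 0.50), Cd68 (-0.12 to 0.64), Clec4f (-0.51 to 0.012), Csf1r (-0.19 to 0.29), Csf2ra (-0.21 to 0.28), Ctsb (-0.059 to 0.083), Ctss (-0.076 to 0.47), Fcgr1 (-0.26 to 0.38), Hmox1 (-0.11 to 0.82), Lgmn (-0.27 to 0.59), Marco (-0.088 to 0.45), Mertk (-0.22 to 0.15), Mrc1 (-0.13 to 0.23), Slc40a1 (-0.012 to 0.16), Spic (-0.49 to 0.45) and Tyrobp (-0.035 to 0.32). Over all probe sets tested, the deviations of same-numbered arrays from their genotype means correlated at 0.0046. This shows no shared deviation across the probe sets as a whole, but cannot say whether single genes deviated together. The test was left without the block, and the counts by experiment set arrays side by side by their labels only. The dim members Cd14 and Cd163 had standard errors of 0.32 and 0.30, against a median of 0.19 over the members, which limits what they can show.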
